A study of Arabidopsis thaliana with 12 samples.

Results

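Anthers of the Arabidopsis thaliana mutant ms35 at the labelled bicellular stage were compared with ms35 anthers at the labelled stage PMI (pollen mitosis I), gene by gene, on Affymetrix ATH1 microarrays. The comparison rests on 4 of the 12 arrays of the series, 2 labelled ms35 bicellular and 2 labelled ms35 PMI, chosen by their labels alone. Per the labels, all 4 came from anthers with their filaments of an ms35 gene knock-out in the Ler-0 background, grown at one constant temperature under long days. The same labelled step in the wild-type control, which the labels name Glabra in the source and Ler in the titles, stands beside it on 2 bicellular and 2 PMI arrays. The labels give neither the allele nor the age of the plants. Whether each replicate had its own plants is not stated, so the p-values rest on a spread between arrays that may be technical.

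MS35, also known as MYB26, is a transcription factor needed for the fibrous secondary thickening of the endothecium, the subepidermal wall layer of the anther, and ms35 anthers make pollen that is not released. In an anther the tapetum nourishes the microspores and supplies the material of the pollen wall and coat before it breaks down. Each microspore divides at pollen mitosis I into a vegetative and a generative cell, and the resulting bicellular pollen later gains its sperm cells at pollen mitosis II. As pollen matures it accumulates transcripts for the cytoskeleton, signalling and wall enzymes of the pollen tube, together with proteins that protect against drying.

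The values are signal per probe set, a group of short probes for a transcript, on a linear scale with no natural unit. Array medians ran from 37.3 to 45.2 over the series. A probe set was tested when its signal exceeded 25.5 on at least 2 of the 12 arrays, which left 16464 of 22746, of which 9201 had a single named gene. The number of arrays, rather than any read depth, limits the precision. No probe set carried the name MYB26, and the mutated gene is not analysed here. The anther regulators EMS1, SPL and AMS had signals above the limit on all 4 ms35 arrays, with EMS1, a receptor kinase of tapetum specification, at 204 and 188 at bicellular, against 237 and 240.4 at PMI. In bulk anthers, fewer cells of a type and less RNA per cell cannot be told apart.

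The 2 ms35 bicellular arrays lay apart from each other. On the first principal component, with 46.2% of the variance, ms35 bicellular replicate 2 lay at -18.99 and replicate 1 at 28.3, against -61.7 and -79.8 for the ms35 PMI arrays. Replicate 2 correlated across probe sets with ms35 PMI replicate 1 (r = 0.909) slightly more than with its own replicate 1 (r = 0.899), as a description over the 16464 tested probe sets. Its ratio of 3' to 5' signal for GAPDH, a sign of RNA integrity, was 2.37, and that of replicate 1 was 1.57, against 1.29 and 2.11 on the ms35 PMI arrays. The part of RNA integrity in the results was not tested. Results are also given without ms35 bicellular replicate 2, though with 2 arrays neither can be named the outlying one. Replicate 1 was farther from ms35 PMI in 83.2% of the called increases and 78.3% of the called decreases. Leaving out replicate 2 therefore enlarges most changes by construction and is no separate support for them.

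The stage names are used as labelled. Genes of late pollen and the pollen tube, which are known to accumulate as pollen matures, had a mean log2 signal of 5.36 and 6.49 on the ms35 bicellular arrays, against 6.71 and 7.25 on the ms35 PMI arrays. Their summed signal was 1278.5 and 2719.8, against 4016 and 4632. The tested markers thus did not follow the usual stage order, in which PMI comes first, and the same held in wild type, with 5.56 and 5.21 at bicellular, against 7.70 and 7.70 at PMI. "Rose" and "fell" below say what the array groups labelled bicellular did relative to those labelled PMI.

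Between the arrays labelled bicellular and PMI, 434 of the 16464 tested probe sets changed in ms35, a share of 2.64% (limma, Benjamini-Hochberg adjusted p under 0.05). Of these, 268 rose (1.63%) and 166 fell (1.01%). The decreases reached farther: 40 of the 166 fell by at least 3 on the log2 scale, and 25 of the 268 rose by as much. The median change of the called probe sets was 1.51 for increases and -1.71 for decreases, and that of all tested probe sets was 0.06. All 434 had arrays that did not overlap between the groups, which 27.4% of all tested probe sets also showed in the upward and 21.1% in the downward direction. Without ms35 bicellular replicate 2 the fit called 818, of which 402 rose, 416 fell and 348 were among the 434. Fewer were called without a different array: 33 without ms35 PMI replicate 2, 41 without ms35 bicellular replicate 1 and 301 without ms35 PMI replicate 1. With each array centred on its median, 187 rose and 190 fell.

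**Figure D1:**
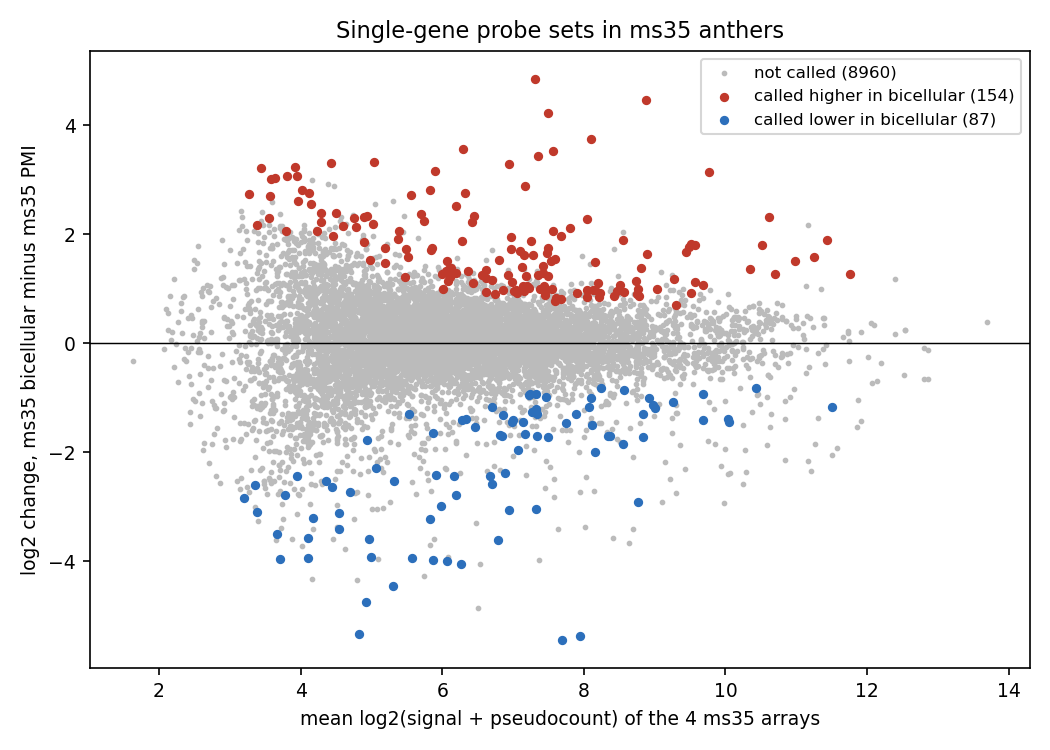
Log2 change between ms35 bicellular and ms35 PMI arrays (vertical axis) against mean log2 signal of these 4 arrays (horizontal axis) for the 9201 tested probe sets with 1 gene; each point is a probe set. The 154 called increases (red) extend to 4.86, and the 87 called decreases (blue) extend to -5.44.

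Fewer probe sets were called in ms35 than over the same labelled step in wild type. There the same fit called 2977 (18.1%), 1776 of them higher and 1201 lower. Unequal counts of calls are no test that fewer genes changed. The test of the difference between the steps called 16 probe sets (0.0972%). Both counts also moved with the arrays fitted, as given at the end. Most of the ms35 calls were also wild type calls in the same direction. Of the 268 that rose in ms35, 219 rose in wild type too, which is 81.7% of the ms35 list and 12.3% of the wild type list. Of the 166 that fell in ms35, 131 fell in wild type, which is 78.9% of the ms35 list and 10.9% of the wild type list. No probe set rose in ms35 and fell in wild type, and 1 fell in ms35 and rose in wild type.

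The wild type calls can be read on the ms35 arrays, which took no part in that contrast apart from the shared variance estimate. Probe sets that rose in wild type had a median change of 0.55 in ms35 and 1.21 in wild type, and 90.3% of them had a positive change in ms35, against 54.6% of all tested probe sets. Those that fell in wild type had a median of -0.87 in ms35 and -1.69 in wild type, and 94.2% had a negative change in ms35, against 45.4% of all tested. The wild type medians come from the contrast that selected these probe sets, which enlarges them. The sizes in ms35 and wild type are therefore not comparable here. Each ms35 bicellular array showed the same direction separately. For the probe sets that fell in wild type, replicate 1 lay 1.11 and replicate 2 lay 0.60 below the ms35 PMI mean at the median, in log2 units. For those that rose in wild type, replicate 1 lay 0.70 and replicate 2 lay 0.44 above it. In 80.1% of the probe sets that fell in wild type and 77.2% of those that rose, replicate 1 was farther from ms35 PMI in that direction than replicate 2. Across all tested probe sets the ms35 step and the wild type step, which share no array, correlated with r = 0.639, a description across genes, which are not independent replicates.

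The largest increase belonged to SHT, the spermidine hydroxycinnamoyl transferase that makes phenolic polyamine conjugates of the pollen coat in the tapetum. Its signal was 1396 and 517 in the bicellular arrays, against 50.8 and 14.1 in the PMI arrays. Both bicellular arrays lay far above both PMI arrays, with replicate 1 the higher of the pair. The log2 change was 4.86 ± 0.55 (SE; limma adjusted p = 0.00288), and 5.57 without ms35 bicellular replicate 2. SHT had 5361 and 2799 on the ms35 arrays labelled PMII (pollen mitosis II).

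Most of the other largest increases were loci known here by their locus names alone, for which no role is given. AT1G30020 had signals of 3660.2 and 1343 in the bicellular arrays, against 150.2 and 63.3 in the PMI arrays, a log2 change of 4.47 ± 0.55 (limma adjusted p = 0.00316). AT5G16960 had 1897 and 317 in the bicellular arrays, against 38.7 and 39.8 in the PMI arrays (log2 change 4.23 ± 0.79, limma adjusted p = 0.0211). In both genes replicate 1 was the higher bicellular array by more than the PMI arrays differed. AT5G48210 rose by 3.76, with 1701 and 595 at bicellular, against 113 and 46.1 at PMI in signal, and AT5G65205 by 3.43, with 1182 and 241 at bicellular, against 79.3 and 28.0 at PMI. AT5G28470 had bicellular arrays close together and PMI arrays far apart, with 409.7 and 361 at bicellular, against 95.2 and 13.6 at PMI and a log2 change of 3.30. For 3 genes the PMI arrays were both under the signal limit, so that the size is a lower bound set by that limit. AT5G62080 was at least 10.5-fold higher in bicellular arrays, AT5G61940 at least 3.98-fold and AT4G04760 at least 2.56-fold (limma adjusted p = 0.00198, 0.0183 and 0.0109 in that order).

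AT1G26710 was the exception among the 10 largest increases in its wild type values. Its signal was 986 and 413 in the bicellular arrays, against 92.9 and 30.3 in the PMI arrays of ms35, and 31.5 and 32.5 in wild type bicellular arrays, against 25.2 and 13.9 in wild type PMI arrays. In ms35 it rose by 3.53 ± 0.51 on the log2 scale (limma adjusted p = 0.0073), and in wild type its change was 0.70 (limma adjusted p = 0.376). The difference between the 2 steps was not past the threshold (limma adjusted p = 0.215). The other 9 of the 10 also rose in wild type, by 2.81 to 6.95 on the log2 scale. The call was lost without ms35 bicellular replicate 1 for each of these genes except SHT, AT1G30020 and AT5G62080, with a limma adjusted p between 0.0796 and 0.167. It was lost without ms35 PMI replicate 1 for AT5G16960, with a limma adjusted p of 0.0633. The call was also lost without ms35 PMI replicate 2 for each of these genes except SHT, AT1G30020 and AT5G62080, with a limma adjusted p between 0.0707 and 0.152.

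**Figure D2:**
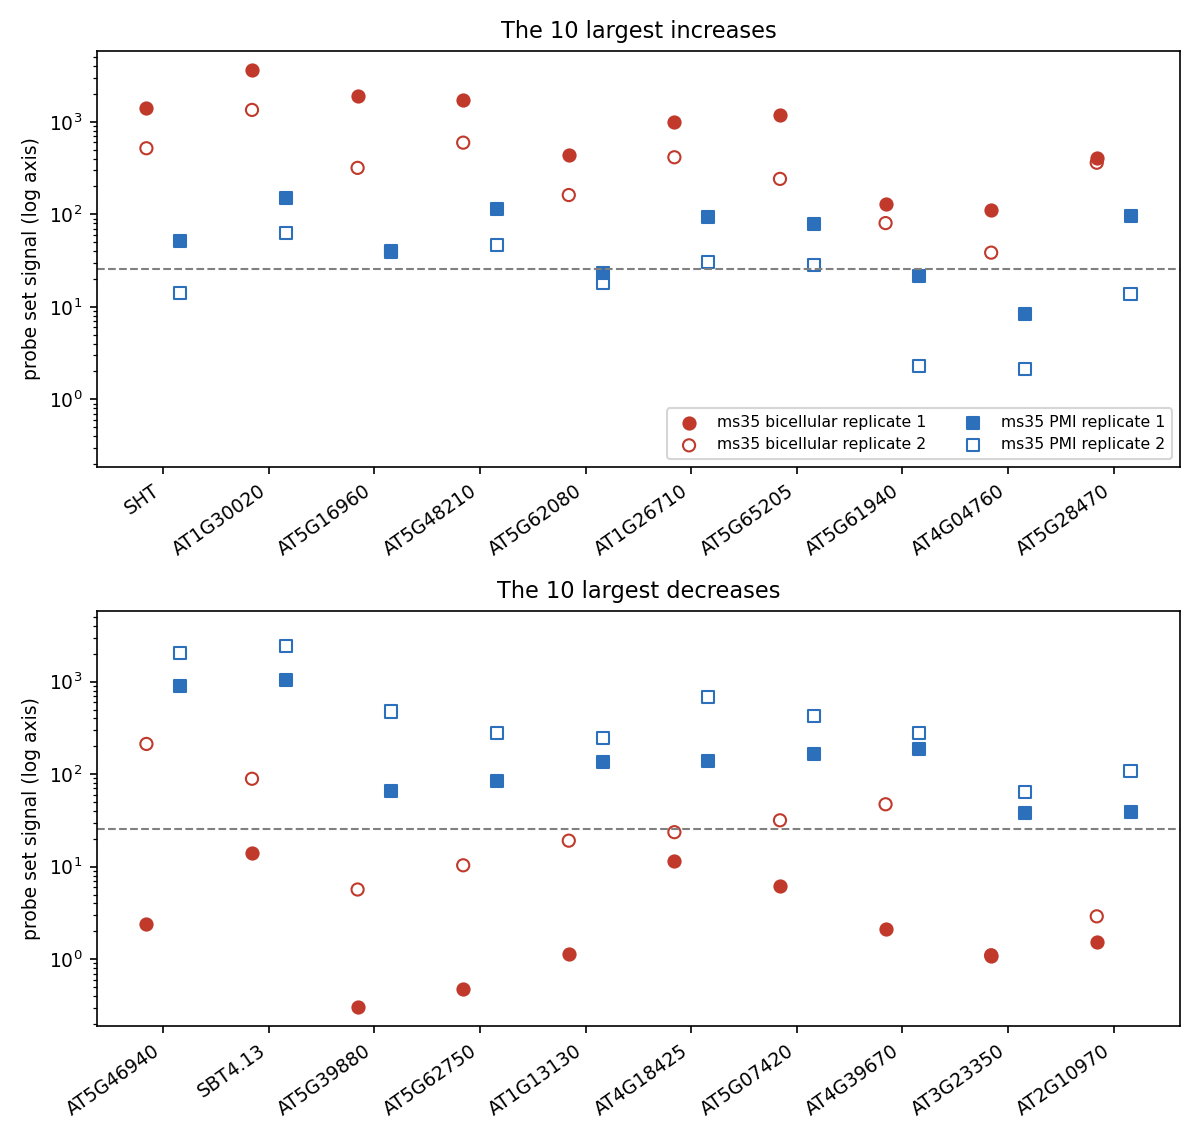
Signal per array (log axis) of the 10 largest called increases (upper panel) and decreases (lower panel) in ms35, with bicellular arrays as circles left of PMI arrays as squares, and replicate 1 filled and replicate 2 open; the dashed line is the signal limit of 25.5. The 20 genes were chosen among called probe sets whose groups do not overlap. For 9 of the 10 decreases bicellular replicate 2 lies visibly above replicate 1.

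Among increases with an established gene symbol, SBT5.4, one of the subtilisin-like proteases, had bicellular arrays close together. Its signal was 739 and 704 in the bicellular arrays, against 205 and 178 in the PMI arrays, and it rose by 1.90 ± 0.21 on the log2 scale (limma adjusted p = 0.00288). GT2, a trihelix DNA-binding protein, had 353 and 238 at bicellular, against 93.1 and 64.3 at PMI in signal and rose by 1.88 ± 0.23 (limma adjusted p = 0.00316). PPR596, a pentatricopeptide repeat protein of mitochondrial RNA metabolism, had 342 and 318 at bicellular, against 113 and 81.3 at PMI and rose by 1.76 ± 0.21 (limma adjusted p = 0.00316). In these 3 genes the bicellular arrays differed between themselves by less than the groups did, and the wild type change was 3.08, 2.46 and 1.77 in the same order.

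Another 5 increases with symbols followed. SWEET8, a sugar carrier also named RUPTURED POLLEN GRAIN1 and needed for the exine pattern, had a signal of 2927 and 2281 in the bicellular arrays, against 1397 and 812 in the PMI arrays. It rose by 1.28 ± 0.26 (limma adjusted p = 0.0312) and was the sole called member of the 18 tested sugar carriers. CRT1b, a calcium-binding chaperone of the endoplasmic reticulum, was the brightest of the named increases, with 6778 and 4301 at bicellular, against 2441 and 2052 at PMI and a log2 change of 1.27 ± 0.28 (limma adjusted p = 0.0369). The multicopper oxidase-like gene sks18 had 1246 and 566 at bicellular, against 319 and 226 at PMI and rose by 1.64, with replicate 1 far above the other bicellular array. DD46, given without a role, had 874 and 386 at bicellular, against 158 and 87.2 at PMI and rose by 2.29. RBL (REBELOTE), which acts in the arrest of the floral meristem, was at least 3.27-fold higher in bicellular arrays, with 98.4 and 70.6 at bicellular, against 25.5 and 12.98 at PMI, and its change in wild type did not pass (limma adjusted p = 0.0528).

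The remaining named increases were ZAP1, RR16, AT1G59740 and AT1G44970. ZAP1, also called WRKY1, had 644 and 425 at bicellular, against 289.8 and 214 at PMI in signal and rose by 1.06 ± 0.24 (limma adjusted p = 0.0429), the single call among 5 tested WRKY factors. RR16, a response regulator of cytokinin signalling, had 599.7 and 579 at bicellular, against 373 and 260.3 at PMI and rose by 0.91 ± 0.19 (limma adjusted p = 0.0318), and the other 2 tested response regulators did not pass. AT1G59740, the transporter NPF4.3, had 1336 and 940.1 at bicellular, against 461 and 562 at PMI and rose by 1.13 ± 0.20 (limma adjusted p = 0.0165). AT1G44970 had 269 and 220.2 at bicellular, against 55.6 and 67.5 at PMI and rose by 1.95 ± 0.24 (limma adjusted p = 0.00316). In all 4 genes both bicellular arrays lay above both PMI arrays, as in every called increase. Among these 12 increases, SBT5.4, GT2, PPR596 and AT1G44970 kept their calls without any single ms35 array. For the other 8 the call was lost without ms35 bicellular replicate 1, with a limma adjusted p between 0.12 and 0.315. It was lost without ms35 PMI replicate 1 for sks18, CRT1b, ZAP1 and AT1G59740, with a limma adjusted p between 0.0556 and 0.0731. The call was also lost without ms35 PMI replicate 2 for these 8, with a limma adjusted p between 0.0885 and 0.29.

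Among probe sets with 1 gene, the largest decreases were those of AT5G46940, given by its locus name, and SBT4.13, a subtilisin-like protease. SBT4.13 had a signal of 14.01 and 89.2 in the bicellular arrays, against 1032 and 2423 in the PMI arrays. It fell by 5.36 ± 0.94 on the log2 scale (limma adjusted p = 0.0165), and its change without ms35 bicellular replicate 2 was -6.61. AT5G46940 had 2.39 and 212 at bicellular, against 904 and 2059 at PMI, and bicellular replicate 2 was far above replicate 1 while still below both PMI arrays. Its log2 change was -5.44 ± 1.30 (limma adjusted p = 0.0489), and -8.21 without ms35 bicellular replicate 2. AT5G07420 and AT4G39670 showed the same order of arrays, with log2 changes of -3.998 and -3.97. AT5G07420 had 6.12 and 31.7 at bicellular, against 166 and 428 at PMI. AT4G39670 had 2.14 and 47.2 at bicellular, against 188 and 279 at PMI.

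In 6 of the 10 largest decreases both bicellular arrays were under the signal limit. AT4G18425 was at least 12.1-fold lower in bicellular arrays, with 11.5 and 23.6 at bicellular, against 139 and 684 at PMI in signal. AT1G13130 was at least 7.17-fold lower, with 1.13 and 19.1 at bicellular, against 136 and 246 at PMI. AT5G39880 and AT5G62750 were at least 6.89-fold and 6.04-fold lower, and AT2G10970 and AT3G23350 at least 2.55-fold and 1.93-fold. The bicellular arrays of these genes thus carry only an upper limit. Of the 10, 9 also fell in wild type. AT1G13130, with 145 and 199 in wild type bicellular arrays, against 443 and 520.0 in wild type PMI arrays, did not pass there (limma adjusted p = 0.14), and the difference between the steps did not pass either (limma adjusted p = 0.364). The call was lost without ms35 bicellular replicate 1 for each of these genes except AT1G13130, with a limma adjusted p between 0.12 and 0.257. It was lost without ms35 bicellular replicate 2 for AT3G23350 and AT2G10970, with a limma adjusted p between 0.0527 and 0.0658. The call was also lost without ms35 PMI replicate 1 for AT5G46940, AT4G39670, AT3G23350 and AT2G10970, with a limma adjusted p between 0.0589 and 0.112. It was lost without ms35 PMI replicate 2 for every one of these genes, with a limma adjusted p between 0.0948 and 0.302.

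The named decreases with symbols began with PLIM2a and LCR72. PLIM2a, an actin-bundling LIM protein of pollen, had a signal of 1.23 and 17.3 in the bicellular arrays, against 55.7 and 267 in the PMI arrays, and was at least 4.78-fold lower in bicellular arrays (limma adjusted p = 0.0443). LCR72, a small cysteine-rich defensin-like protein, was at least 7.17-fold lower, with 4.08 and 21.1 at bicellular, against 129 and 259.8 at PMI (limma adjusted p = 0.0103). CML42, a calmodulin-like calcium sensor, had 118 and 322 at bicellular, against 678 and 742 at PMI and a log2 change of -1.85 ± 0.43 (limma adjusted p = 0.0463). In these genes, too, bicellular replicate 2 was the higher of the bicellular arrays. CHX20, a cation/proton exchanger of endomembranes, had 57.4 and 107 at bicellular, against 242 and 264 at PMI and a log2 change of -1.66 ± 0.32 (limma adjusted p = 0.0229).

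ATG8H, a ubiquitin-like protein of autophagy, had signals of 105 and 154 in the bicellular arrays, against 341 and 368 in the PMI arrays, a log2 change of -1.46 ± 0.31 (limma adjusted p = 0.0313). CP1, a papain-like cysteine proteinase also named RDL1, had 533 and 771 at bicellular, against 1584 and 1937 at PMI and a log2 change of -1.45 ± 0.29 (limma adjusted p = 0.0289). BPEp, a bHLH factor that limits petal size, had 141 and 234 at bicellular, against 492 and 720.0 at PMI and a log2 change of -1.70 ± 0.34 (limma adjusted p = 0.026). In all 3 both PMI arrays lay well above the nearer bicellular array. GTR2, a glucosinolate importer of the NPF family, had 51.4 and 47.6 at bicellular, against 165 and 133 at PMI and a log2 change of -1.54 ± 0.30 (limma adjusted p = 0.026), and AT1G68570, the family member NPF3.1, had 115 and 274 at bicellular, against 545 and 627 at PMI and a change of -1.71 ± 0.39 (limma adjusted p = 0.0443). ALDH7B4, a stress-responsive aldehyde dehydrogenase, had 946 and 1133 at bicellular, against 1733 and 1933 at PMI and a change of -0.82 ± 0.18 (limma adjusted p = 0.0391). All 10 of these named decreases also fell in wild type. The call was lost without ms35 bicellular replicate 1 for every one of these genes, with a limma adjusted p between 0.0896 and 0.335. It was lost without ms35 PMI replicate 1 for each of these genes except LCR72, PLIM2a and BPEp, with a limma adjusted p between 0.0572 and 0.108. The call was also lost without ms35 PMI replicate 2 for every one of these genes, with a limma adjusted p between 0.124 and 0.316.

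Gene lists were matched by symbol, and most listed genes had no named probe set. Of 80 names in the late pollen and pollen tube list, 16 genes had one and 15 were tested. Only PLIM2a fell, where 1.01% of all tested probe sets did, and none rose. Of the 15 changes 14 were negative, against 45.4% of all tested probe sets. Their median was -0.69, against 0.06 for all tested probe sets. In wild type 10 of the 15 fell, where 1201 of all 16464 tested probe sets did, with a median of -1.66. Without ms35 bicellular replicate 2 the median was -0.87. Another 3 of the 15, AtVEX1, PLIM2b and AGL18, were named after their values were seen. AtVEX1, a gene of the pollen vegetative cell, had 59.2 and 650.1 in the bicellular arrays, against 1451 and 1559.8 in the PMI arrays. Its change was -2.91 ± 0.78 with all arrays (limma adjusted p = 0.0716) and -4.62 without that array (limma adjusted p = 0.000903). PLIM2b had 197 and 513 at bicellular, against 772 and 839 at PMI and a change of -1.33 (limma adjusted p = 0.0935, or 0.00854 without that array). AGL18, a MADS-box factor, had 87.9 and 191 at bicellular, against 209.7 and 236 at PMI and -0.77 (limma adjusted p = 0.257, or 0.0465). In each of the 3, bicellular replicate 2 lay between replicate 1 and the PMI arrays, so leaving out replicate 2 enlarged the change by construction. MGH3, a sperm cell histone H3 and the sole tested germ line gene, had 156 and 274 at bicellular, against 382 and 303 at PMI and did not pass (limma adjusted p = 0.51).

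**Figure D3:**
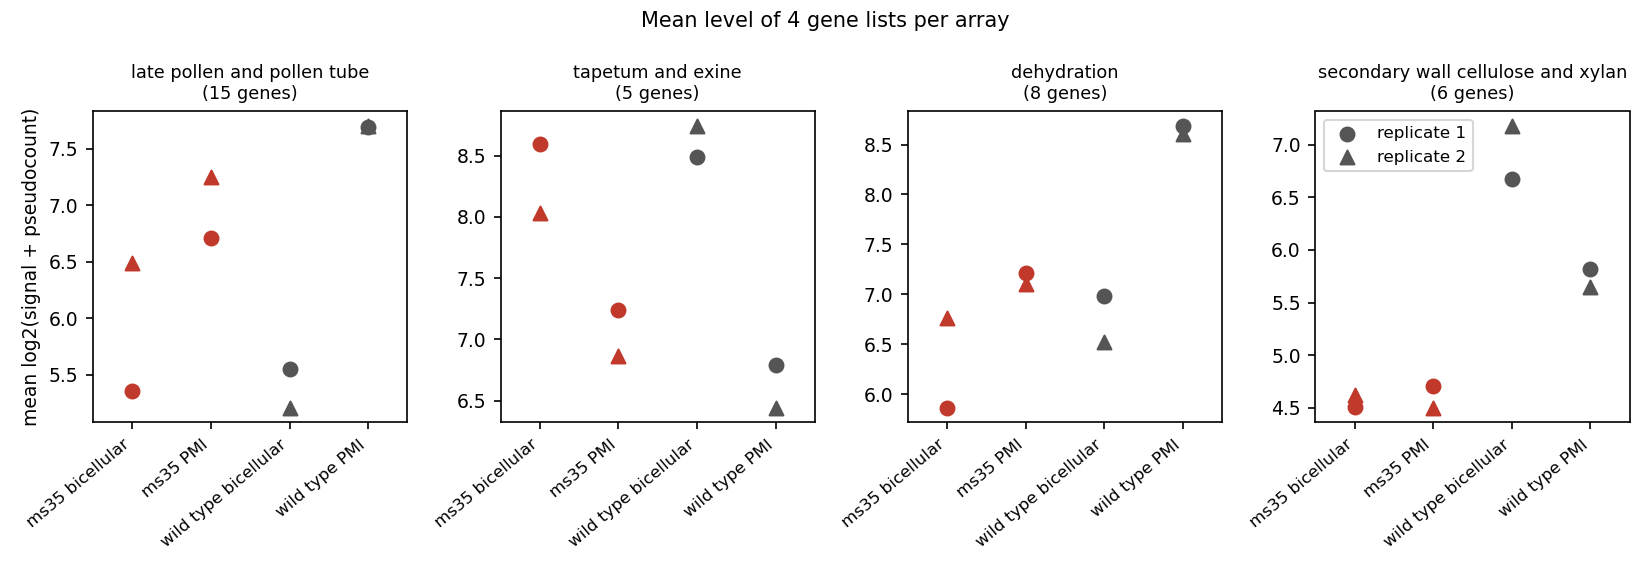
Mean log2 signal of 4 gene lists on each array (vertical axes, each panel with its own range), for ms35 (red) and wild type (grey), bicellular left of PMI, with replicate 1 as circles and replicate 2 as triangles. For late pollen the ms35 bicellular arrays are at 5.36 and 6.49, with the ms35 PMI arrays at 6.71 and 7.25. In the panel of secondary wall cellulose and xylan, whose 6 tested genes are all xylan genes, all 4 ms35 arrays lie between 4.50 and 4.71.

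Of the 5 tested members of the tapetum and exine list, SHT and SWEET8 rose, where 1.63% of all tested probe sets did, and none fell. The median was 0.67, against 0.06 for all tested probe sets. AMS, a bHLH regulator of tapetum development, had 74.6 and 53.3 in the bicellular arrays, against 34.4 and 43.8 in the PMI arrays. Its bicellular arrays lay above its PMI arrays without overlap, as in 27.4% of all tested probe sets. AMS did not pass (limma adjusted p = 0.417), while it rose in wild type. EMS1 and SPL, regulators of early anther cell fate, had changes of -0.28 and -0.18. The mean level of the list was 8.60 and 8.04 on ms35 bicellular arrays, against 7.24 and 6.86 on ms35 PMI arrays. Without ms35 bicellular replicate 2 the same 2 members were called. No gene of the pollen coat list had a named probe set.

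Of the 8 tested genes of dehydration and cold, 2 fell, where 1.01% of all tested probe sets did, and none rose. Changes were negative for 5, against 45.4% of all tested probe sets, and positive for 3, up to 1.05, with a median of -0.75. In wild type 6 fell and 2 rose, where 1201 and 1776 of all 16464 tested probe sets did, with a median of -1.80. COR15B, a chloroplast protein that protects membranes on freezing, had 87.7 and 106 in the bicellular arrays, against 360.0 and 291 in the PMI arrays. The 2 groups were far apart relative to their spread, and the change was -1.72 ± 0.21 (limma adjusted p = 0.00316); it kept its call without any single ms35 array. COR47, a dehydrin, had 566 and 625 at bicellular, against 1005 and 1267 at PMI and a change of -0.92 ± 0.20 (limma adjusted p = 0.0388). The late embryogenesis gene LEA4-5 had 1.44 and 29.9 at bicellular, against 78.8 and 60.8 at PMI. LEA18 had 1.06 and 13.8 at bicellular, against 49.3 and 34.6 at PMI, and neither passed (limma adjusted p = 0.203 and 0.168), with or without ms35 bicellular replicate 2. LEA4-5 and LEA18 were given outside the naming rule, and none of the 3 members with positive changes is named. The call was lost without ms35 bicellular replicate 1 for COR47, with a limma adjusted p of 0.236. It was lost without ms35 PMI replicate 1 for COR47, with a limma adjusted p of 0.0556. The call was also lost without ms35 PMI replicate 2 for COR47, with a limma adjusted p of 0.271.

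None of the 6 tested secondary wall genes of cellulose and xylan passed in ms35, where 2.64% of all tested probe sets did, so that a count of 0 is near the background. In wild type 1 of the 6 rose, where 1776 of all 16464 tested probe sets did. Their median change was 0.08 in ms35 and 1.43 in wild type. IRX15-L, an enzyme of xylan synthesis, had 16.1 and 1.08 at bicellular, against 18.2 and 5.36 at PMI in signal, all under the signal limit, and TBL34, a xylan acetyltransferase, had 6.67 and 15.2 at bicellular, against 12.7 and 20.9 at PMI. The summed signal of the 6 genes was 235 and 279 on ms35 bicellular arrays, against 236 and 218 on ms35 PMI arrays, and in wild type 825 and 1101 at bicellular, against 400 and 349 at PMI. No difference between the 2 steps passed for any of the 6. The 5 tested lignin and phenylpropanoid genes gave no call (median 0.24), and CCR2, a cinnamoyl-CoA reductase, had 77.7 and 25.1 at bicellular, against 33.8 and 8.24 at PMI. ALDH2C4, which makes ferulic and sinapic acids, had 393 and 159.7 at bicellular, against 136 and 140.1 at PMI. Its change was 0.85 (limma adjusted p = 0.237), against 1.495 without ms35 bicellular replicate 2 and 0.21 without ms35 bicellular replicate 1.

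None of the 3 tested dehiscence enzymes passed. All 3 changes were negative, against 45.4% of all tested probe sets, with a median of -2.17. ADPG1, a polygalacturonase of anther and silique opening, had 42.3 and 86.7 in the bicellular arrays, against 209.6 and 531 in the PMI arrays. Its log2 change was -2.42 ± 0.62 (limma adjusted p = 0.0614). It passed with an offset of 16 (limma adjusted p = 0.0208) and with quantile normalization (0.0457). Its change was -2.92 without ms35 bicellular replicate 2 and -1.92 without ms35 bicellular replicate 1. The endoglucanase GH9A4 had 9.70 and 19.0 at bicellular, against 37.9 and 125 at PMI (limma adjusted p = 0.134). In both genes the bicellular arrays lay below the PMI arrays without overlap, as in 21.1% of all tested probe sets. None of 12 expansins passed (median -0.34). The largest change was that of EXPA8, with 1.5004 and 9.74 at bicellular, against 64.1 and 125 at PMI (limma adjusted p = 0.0514). It was -3.78, against -4.62 without ms35 bicellular replicate 2 and -2.94 without ms35 bicellular replicate 1. None of 17 wall acetyltransferases of the TBL family, 9 GH9 endoglucanases, 7 cellulose synthase and like genes or 5 xyloglucan endotransglucosylases passed, with medians of -0.37, -0.49, -0.32 and 0.24. Without ms35 bicellular replicate 2 the medians of the endoglucanases and of the cellulose synthase and like genes were -0.74 and -0.48.

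No photosynthesis gene passed in ms35. All 7 tested nuclear genes of the photosystems and their antennae had positive changes, against 54.6% of all tested probe sets, with a median of 0.85. Bicellular arrays lay above PMI arrays in 6 of the 7, against 27.4% of all tested probe sets. PSAN, a subunit of photosystem I, had 555 and 193 in the bicellular arrays, against 171 and 136 in the PMI arrays, with replicate 1 well above the other 3 arrays. Its change was 1.09 (limma adjusted p = 0.16), against 1.85 without ms35 bicellular replicate 2 and 0.34 without ms35 bicellular replicate 1. PRK, the Calvin cycle phosphoribulokinase, had 641 and 351 at bicellular, against 232 and 235 at PMI and a change of 1.02 ± 0.25 (limma adjusted p = 0.0549). The change of PRK was 1.45 without ms35 bicellular replicate 2 and 0.58 without ms35 bicellular replicate 1. RCA, rubisco activase, had 1358 and 669 at bicellular, against 613 and 372 at PMI and 0.99 (limma adjusted p = 0.106, or 0.0119). Of 67 plastid-encoded probe sets none passed, with a median of 0.33. A positive change was seen in 58 of them, against 54.6% of all tested probe sets. In wild type the median of the same 67 was 0.31.

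Ion and solute carriers gave scattered calls. Of all tested probe sets, 1.63% rose and 1.01% fell in ms35. Of 5 cation/proton exchangers only CHX20 fell, with a family median of -1.66, against -2.83 in wild type. Of 11 nitrate and peptide transporters 1 rose and 2 fell, as named above. Of 18 sugar carriers 1 rose, and the median was -0.33; without ms35 bicellular replicate 2, 1 rose and 1 fell. Of 7 subtilases SBT5.4 rose and SBT4.13 fell, a range from -5.36 to 1.90. The 6 tested genes grouped as core histones, which include HIS1-3, a linker histone and no core histone, had no call in ms35. Their median was 0.09. In wild type 4 rose and 1 fell, where 1776 and 1201 of all 16464 tested probe sets did, with a median of 1.22. No member's difference between the steps passed. HTB2, a histone H2B, had 141 and 135 at bicellular, against 71.4 and 98.2 at PMI in ms35, and its change was 0.70, against 1.76 in wild type (difference, limma adjusted p = 0.492). Of 14 MADS-box factors none passed, with a median of -0.48. Changes were negative for 11 of them, against 45.4% of all tested probe sets.

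**Figure D4:**
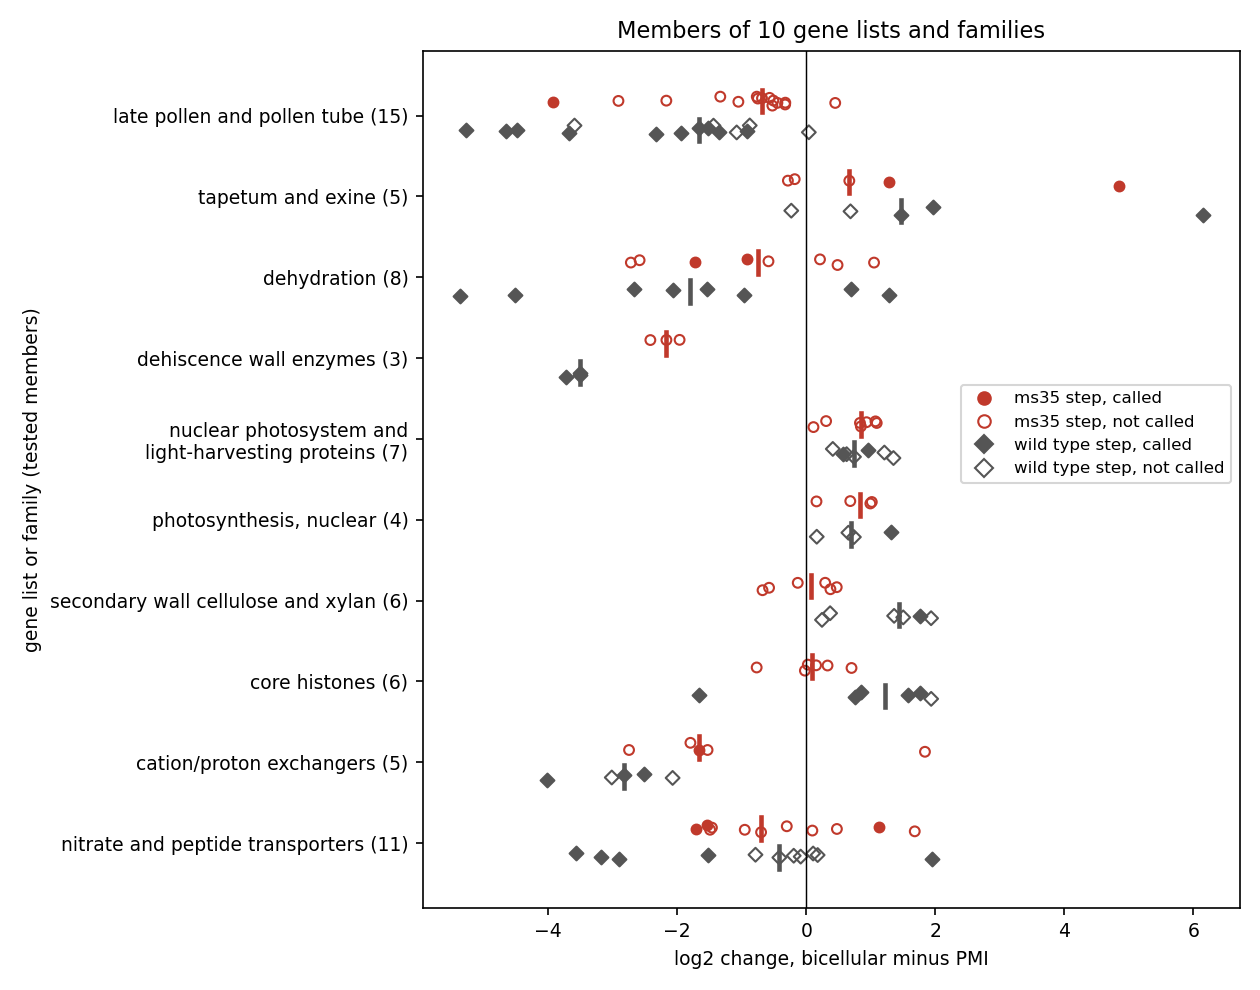
Log2 change, bicellular minus PMI, of each tested member (points) of 10 gene lists and families, for ms35 (red circles, upper row) and wild type (grey diamonds, lower row), filled where limma called the member; short bars are medians. Late pollen, dehydration and dehiscence genes lie left of 0 at the median in both genotypes. The row of core histones, which includes the linker histone HIS1-3, and the secondary wall row, all xylan genes, have medians of 0.09 and 0.08 in ms35.

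Hormone and pigment lists gave no call in ms35. The 5 tested auxin genes had a median of 0.80, the 3 jasmonate genes -0.16 and the 5 tested members of the flavonoid list 0.07. In the flavonoid list the symbol CHI was matched to AT2G43570 by name alone. Whether that locus acts in flavonoid synthesis was not checked. SAG29, a sugar carrier of senescing tissue and the one tested gene of the cell death list, had 156 and 83.1 at bicellular, against 82.1 and 87.6 at PMI (limma adjusted p = 0.558). Of the genes listed for carpel and perianth, SPT had 47.0 and 39.97 at bicellular, against 64.2 and 95.5 at PMI. INO had 33.1 and 6.92 at bicellular, against 29.9 and 15.4 at PMI. Their summed signal was 80.1 and 46.9 in bicellular arrays, against 94.1 and 110.9 in PMI arrays, and neither gene passed. Their part in the results was not tested.

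Where the ms35 step itself was set against the wild type step, 16 probe sets differed (0.0972% of those tested; limma), each with the lower change in ms35, and 8 had a single gene. AT3G27200 stood out. Its signal was 32.3 and 50.5 in the bicellular arrays, against 318 and 387 in the PMI arrays of ms35, and 1910.1 and 2349 in wild type bicellular arrays, against 439 and 440.1 in wild type PMI arrays. The groups lay far apart in both genotypes and in opposite order. It fell by 3.05 ± 0.30 in ms35 (limma adjusted p = 0.00198) and rose by 2.26 in wild type, a difference of -5.31 ± 0.42 (limma adjusted p = 0.00039), and on the ms35 PMII arrays it had 32.4 and 25.4. Both the call in ms35 and that of the difference held without any single array of the 4 or of the 8 compared.

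AT1G66810, the zinc finger gene AtC3H14 that is known to activate secondary wall genes, also differed. It had 15.8 and 1.40 in the bicellular arrays, against 34.004 and 21.3 in the PMI arrays of ms35, and 377 and 439 in wild type bicellular arrays, against 20.4 and 37.6 in wild type PMI arrays. Only its wild type bicellular arrays were far above the signal limit, and both ms35 bicellular arrays were under it. The difference of the steps passed (limma adjusted p = 0.0427), but its size has no exact value, lying between -6.39 without an offset and -4.13 with an offset of 16. It did not pass without an offset (limma adjusted p = 0.116). Its change in ms35 alone did not pass (limma adjusted p = 0.131). AT2G27740 was far under the signal limit on every ms35 array, with 2.59 and 4.97 at bicellular, against 1.95 and 4.56 at PMI, and had 983 and 1076 in wild type bicellular arrays, against 89.4 and 76.6 in wild type PMI arrays, and the difference passed (limma adjusted p = 0.0427). No size is given, since no ms35 array measured it above the limit. Without an offset it did not pass (limma adjusted p = 0.167). The call of the difference was lost for both genes without ms35 PMI replicate 1, without ms35 PMI replicate 2 and without each wild type array, with a limma adjusted p between 0.0632 and 0.329, and for AT2G27740 also without ms35 bicellular replicate 1 (0.0567).

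Another 4 genes rose in wild type and had changes in ms35 that did not pass. AT3G06035 had 344 and 294 at bicellular, against 318 and 374 at PMI in ms35 and 1089 and 1128 in wild type bicellular arrays, against 157 and 114 in wild type PMI arrays (difference -3.15 ± 0.34, limma adjusted p = 0.00488). AT3G23840, CER26-LIKE in the gene table, had 103 and 66.5 at bicellular, against 55.0 and 56.0 at PMI in ms35 and 558 and 481 in wild type bicellular arrays, against 50.2 and 40.7 in wild type PMI arrays (difference -2.89 ± 0.41, limma adjusted p = 0.028). In both genes the wild type bicellular arrays lay above all other arrays named here. AT3G45850 had 82.5 and 76.8 at bicellular, against 84.9 and 117 at PMI in ms35 and 297 and 259.5 in wild type bicellular arrays, against 84.3 and 76.8 in wild type PMI arrays (difference -2.07 ± 0.31, limma adjusted p = 0.0367). ACLA-2, a subunit of the cytosolic ATP-citrate lyase that makes acetyl-CoA, had 218 and 222 at bicellular, against 246 and 214 at PMI in ms35 and 602 and 639 in wild type bicellular arrays, against 214 and 225 in wild type PMI arrays (difference -1.55 ± 0.24, limma adjusted p = 0.0464). The eighth, AT1G44970, rose in both genotypes, by 1.95 in ms35 and 4.40 in wild type (difference -2.45 ± 0.34, limma adjusted p = 0.028). AT3G06035 lost its call without ms35 PMI replicate 2 (limma adjusted p = 0.0569) and kept it without each of the other 7. The other 4 genes of this paragraph lost theirs without most single arrays of either genotype, with a limma adjusted p of up to 0.325, the highest being without wild type bicellular replicate 2.

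**Figure D5:**
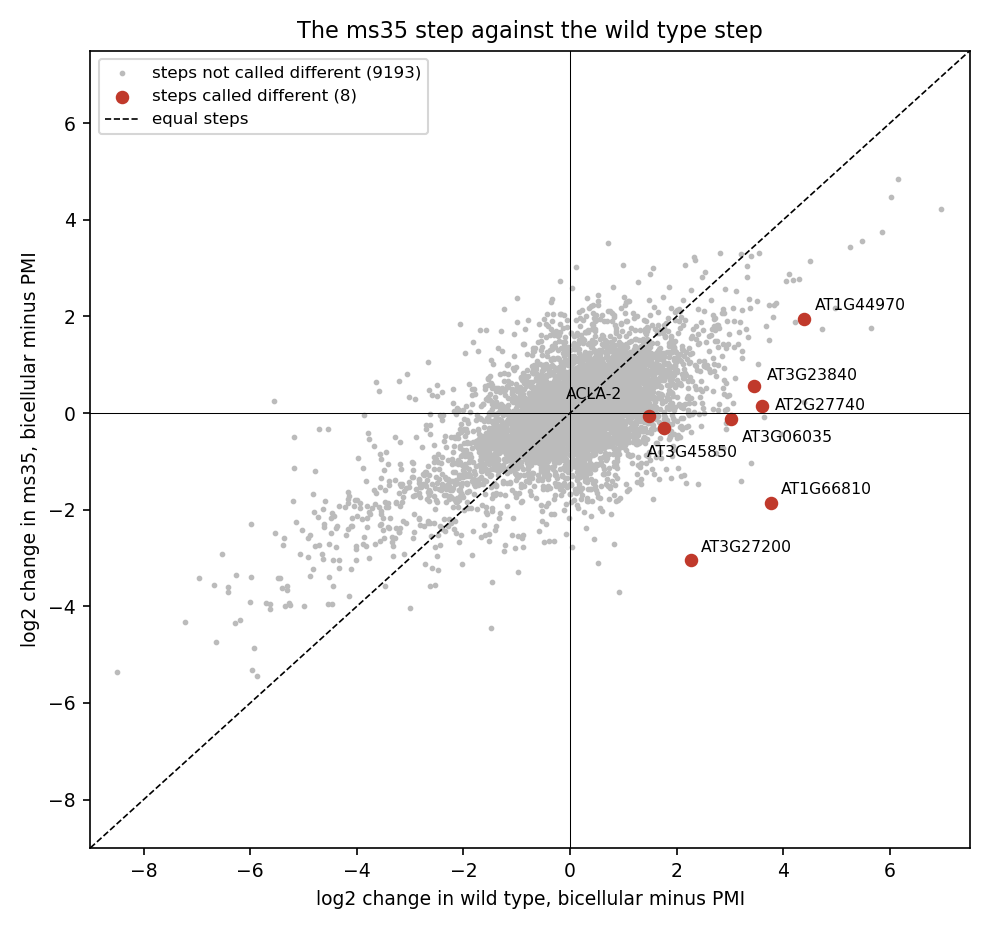
Log2 change between bicellular and PMI arrays in ms35 (vertical axis) against that in wild type (horizontal axis) for 9201 tested probe sets with 1 gene; the dashed line marks equal steps and red points the 8 genes whose steps differ (limma). All 8 lie below the line, and AT3G27200 has -3.05 in ms35 and 2.26 in wild type.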

How the data were processed

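Total RNA of anthers with filaments was hybridised to Affymetrix ATH1 arrays, 1 array per sample. The deposited intensity values are the authors' signals per probe set, on a linear scale, and MAS5 and GCOS are named in the submitters' processing notes, without versions. Of 22810 probe sets, 64 controls were left out. The platform annotation gave 13513 a single gene, 503 several and 8730 none, and 13436 matched a TAIR10.1 gene table.

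Signals were transformed as log2(signal + 2.23), the 10th percentile of all values, so a log2 change understates the change of weak probe sets. Probe sets above 25.5, the 40th percentile, on at least 2 arrays were tested. limma 3.58.1 in R 4.3.3 fitted 6 group means to all 12 arrays, with an intensity trend, 6 residual degrees of freedom and Benjamini-Hochberg adjustment over all tested probe sets at 0.05. The ms35 step, the wild type step and their difference were contrasts of that fit. Where a group was under the limit on both arrays, a fold is a bound against that limit.

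Genes were named as the 10 largest called changes each way, the same among genes with symbols, up to 4 called members (or up to 2 by value) of each list or family, and up to 8 genes whose steps differ. The members and lists were chosen with earlier results of these data known. Deviations of same-numbered replicates from their group means correlated at -0.13 to 0.18. Weak correlations cannot show that the samples were unpaired, and the main fit used no pairing. Alternatives covered the offset, filter, scaling, trend, array weights, replicate block, the arrays fitted and each array left out.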

Additional observations from a re-analysis of the deposited data

Results flagged for a closer look

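The step from PMI to bicellular differed between ms35 and wild type for 16 probe sets in the test of that difference, all with the lower change in ms35. The limma adjusted p of the difference was 0.00039 for AT3G27200, 0.00488 for AT3G06035, 0.0280 for AT1G44970, 0.0280 for AT3G23840, 0.0367 for AT3G45850, 0.0427 for AT1G66810, 0.0427 for AT2G27740 and 0.0464 for ACLA-2. AT3G27200 alone of the 8 kept its call without each of the 8 arrays compared, with 0.00746 as its highest adjusted p. AT3G06035 lost its call without ms35 PMI replicate 2 (0.0569). The other 6 had 0.124 to 0.141 without ms35 PMI replicate 2, 0.0632 to 0.158 without ms35 PMI replicate 1 and 0.103 to 0.329 without wild type bicellular replicate 2. Groups of 2 arrays were too small for a test of outlying samples.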

How the results depend on the processing

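The 2 arrays per group limit every count. The ms35 step had 434 calls, and 653 with the replicate block, 245 with array weights, 234 with both ms35 arrays numbered 2 left out, 111 without the intensity trend and 1 in a fit of only the 4 arrays compared. Leaving out 1 array gave 33 (without ms35 PMI replicate 2) to 818 (without ms35 bicellular replicate 2). Other settings gave 326 to 642. For the difference of the steps, with 16 calls, an offset of 16 gave 37, no offset 8, only the arrays compared 5 and no trend 1, and leaving out 1 array gave 2 to 30. The wild type step, with 2977, had 1056 to 1706 when 1 wild type array was left out. Of the 45 named calls, 45 were kept with the replicate block, 43 without ms35 bicellular replicate 2, 28 without ms35 PMI replicate 1, 10 without ms35 bicellular replicate 1, 9 without ms35 PMI replicate 2 and 0 in the fit of 4 arrays, where adjusted p ran from 0.0532 to 0.159. SHT, AT1G30020, AT5G62080, SBT5.4, GT2, PPR596, COR15B, AT3G27200 and AT1G44970 were called under all 14 alternatives other than that fit. None of the 45 named calls turned its sign under any of these alternatives. Of the 79 named genes without a call, 19 were called under at least 1 alternative, among them ADPG1 with the replicate block (adjusted p = 0.00858). The causes of these shifts were not tested, and the fits that leave arrays out also hold fewer arrays. Probe sets under the signal limit in a group give only a bound there.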
